A study of Homo sapiens with 8 samples.

Results

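Small open reading frames (smORFs) in the transcripts of splicing factors and RNA helicases were examined in Ribo-Seq data of Caco-2, a cell line from a human colon adenocarcinoma that can differentiate towards enterocytes. A smORF was a member when its annotated host gene symbols included a symbol that begins with SRSF, HNRNP, SNRP, SF3A, SF3B, DDX or DHX, and antisense, divergent-transcript and pseudogene symbols were left out. This gave 172 of 24199 smORFs, in 60 host gene symbols. The families were the 30 smORFs of 8 SRSF genes, 46 of 15 HNRNP genes, 26 of 9 SNRP genes, 11 of 6 SF3A and SF3B genes, 41 of 14 DDX genes and 18 of 8 DHX genes. The rule left out 5 smORFs with pseudogene symbols and 3 with antisense or divergent symbols.

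Ribo-Seq sequences the RNA fragments that ribosomes protect. The values here are counts of such fragments assigned to each smORF, not to the coding sequence of the host gene. How fragments that cross the edge of a smORF were counted is not given in the sources used here. Of the 8 libraries, 2 came from undifferentiated cells, 2 from differentiated cells with no further treatment (differentiated control), 2 from differentiated cells given micelles of taurocholate without lipid, and 2 from differentiated cells given lipid micelles with BSA, oleic acid and cholesterol. Every library came from the same tumour line, and the labels give neither a day of differentiation nor a dose. Nothing in the labels says that replicates came from separate cultures, so p-values measure the spread between these libraries, which may be technical.

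SR proteins, encoded by SRSF genes, bind exonic sequences and recruit the splicing machinery, whereas many hnRNP proteins bind nascent transcripts and often counteract them. SNRP genes encode the Sm and other core proteins of the small nuclear ribonucleoproteins (snRNPs), and the SF3A and SF3B complexes belong to the U2 snRNP that recognises the branch site. DDX and DHX proteins are DEAD-box and DEAH-box RNA helicases that remodel RNA during splicing, ribosome assembly, translation and decay. An upstream open reading frame (uORF) lies in the 5′ leader of an mRNA and can draw ribosomes away from the coding sequence that follows.

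The first bases of 10 smORFs, chosen for their change or their level, are shown here, so that their start codons and places can be compared. The sequences come from the deposited smORF table, run 5′ to 3′ on the sense strand, stop after 30 bases or at the end of the smORF, and have the first codon in capitals. Positions are on hg38.
SRSF5 IEC_09612 (chr14:69767095-69768144, plus strand): CGTaggacgcgccctccattttgtggagcg
SRSF1 IEC_13557 (chr17:58007188-58007250, minus strand): AGGcgccattttggaggggccgcgggagac
HNRNPA2B1 IEC_16117 (chr7:26200597-26200773, minus strand): AAAagcggcggcagcggctctagcggcagt
SNRPD1 IEC_01680 (chr18:21612384-21612413, plus strand): AGGattctgtgtgctgtcggacccagaggg
SNRPF IEC_01099 (chr12:95858950-95859006, plus strand): TCCtgtttggcggccatttctcttgaaact
SF3A3 IEC_17026 (chr1:37989989-37990057, minus strand): ATGcgcaacgtggggactcaggcgcgctgg
DDX52 IEC_22890 (chr17:37643426-37643446, minus strand): AGAactgtggcgctttctggg
DDX21 IEC_03061 (chr10:68956170-68956220, plus strand): CTCttcctctccacgcggttgagaagaccg
DHX9 IEC_03603 (chr1:182839367-182839426, plus strand): ATGcgagttgctgtgcgtttctctgttgtc
DHX32 IEC_14211 (chr10:125881011-125881046, minus strand): ATGccgaagagtgctgtagtgagccagcac
Of these 10 smORFs, only those of SF3A3, DHX9 and DHX32 began with ATG, the methionine codon. Those of DDX52 and DDX21 began within the first 3 bases of an annotated transcript and ended 5 bases before its coding start, so no stop codon precedes these frames within that transcript. At this distance a fragment of a ribosome at the coding start could reach into these smORFs, which was not tested.

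Most members lay in 5′ leaders and lacked a methionine start. The submitters' location class was uORF for 156 members, dORF (in a 3′ untranslated region) for 9, non-coding for 4 and intragenic for 3. An ATG start was found in 37 members (21.5%), against 43.4% of all smORFs and 35.6% of all uORFs. CTG or GTG, which can also start translation, was the first codon of 11 members (6.40%) against 3.10% of all smORFs. Of the 108 members without ATG that could be placed in a GENCODE transcript, 60 began directly after an in-frame stop codon and 48 within the first 3 bases of the transcript. The corresponding shares, 55.6% and 44.4%, were close to those of all such smORFs, 56.2% and 43.8%. A frame that opens in either way marks where an open frame begins and not where a ribosome starts.

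Counted per smORF, the families differed in these features. Overlapping smORFs of a gene each count here, and 16 of the 30 SRSF smORFs lay in SRSF5 and 11 of the 41 DDX smORFs in DDX6. ATG starts made up 9 of 18 DHX smORFs but 3 of 41 DDX smORFs, and 7 of 30 SRSF, 11 of 46 HNRNP, 4 of 26 SNRP and 3 of 11 SF3A and SF3B smORFs. The median member was 23 amino acids long (range 6 to 99), against 31 for all smORFs and 28 for all uORFs, and the shortest family was SF3A and SF3B with a median of 15. A RepeatMasker hit was recorded for 32 members (18.6%) against 39.7% of all smORFs, and for none of the 30 SRSF smORFs. Members before a coding start ended a median of 62 bases upstream of it, against 102 bases over all such smORFs, with a median of 31.5 bases in the SRSF family and 123.5 in the HNRNP family. The mean PhyloCSF score, a measure of protein-coding conservation, was above 0 for 1 member, a 21-amino-acid dORF of HNRNPA2B1 (IEC_16116). The median RibORF score, which rates both the coverage and the 3-base periodicity of the fragments, was 0.857 for members and 0.876 for all smORFs.

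**Figure D1:**
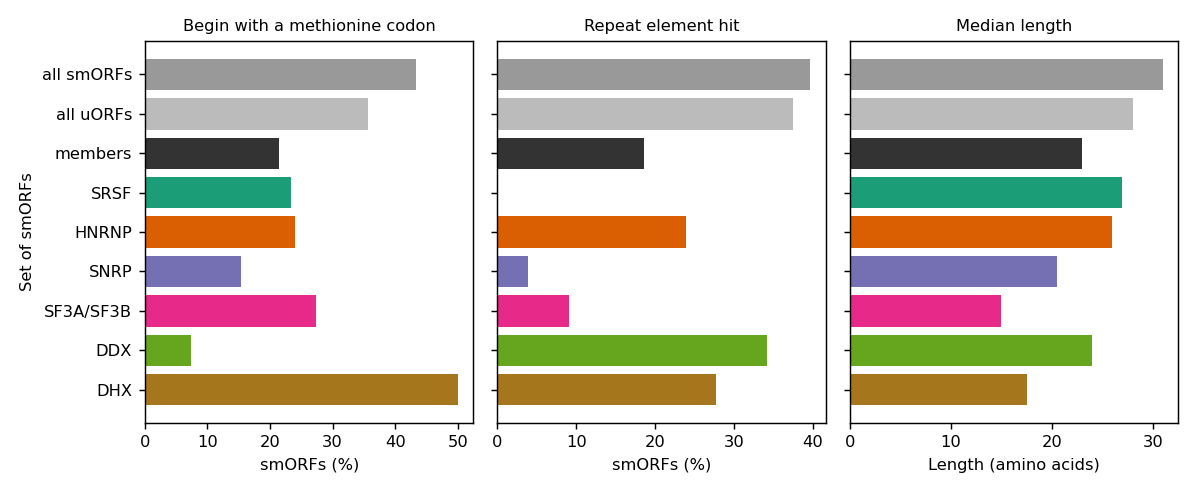
Share of smORFs that begin with a methionine codon (left, %), share with a repeat element hit (centre, %) and median length (right, amino acids), for all smORFs, all uORFs, the 172 members and each family. Members sit at 21.5% methionine starts, 18.6% repeat hits and 23 amino acids, and the families range from 7.32% methionine starts (DDX) to 50.0% (DHX).

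Many members share reads. They formed 91 clusters of smORFs whose exons overlap on the same strand, and 114 members overlapped another smORF. In SRSF5, 14 smORFs lay in 1 cluster, and the 11 smORFs of DDX6 also formed 1 cluster. None of the members overlapped an annotated coding sequence or a small RNA gene. However, 8 members lay opposite an exon of another gene, among them IEC_03603 and IEC_03604 (DHX9-AS1), IEC_22890 in DDX52 and IEC_13557 in SRSF1, and 27 of the 60 host genes have named pseudogenes, led by SNRPG with 20 and HNRNPC with 9, with SNRPF and HNRNPDL at 4 each. How the counting treated strand and reads that map to several places is not given in the sources used here, so the values of these smORFs are uncertain. A further 11 members list a host gene outside the families as well, for example SNRPN with SNURF and DDX46 with C5orf24.

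Library totals ran from 506382 to 884711 smORF counts, and 3 counts in a library correspond to 3.49 to 5.86 counts per 1000000 (CPM, scaled by the TMM method). Members held 1.90% ± 0.0556 (SD, n = 2) of the counts in undifferentiated cells, 1.49% ± 0.00367 in the differentiated control, 1.31% ± 0.0201 after micelles without lipid and 1.57% ± 0.105 after lipid micelles. These shares sum all deposited smORFs, so reads of overlapping smORFs count more than once. With 1 smORF per overlap cluster, the members' summed level was 11990 ± 989, 5689 ± 197, 5122 ± 49.4 and 5810 ± 140 CPM in the same order. The floor of 3 counts covers counting error only. As a check of the labels, cell division markers (16 genes, 7 with a smORF) had 23 of 24 tested smORFs lower in the differentiated control, and their summed level was 2857 to 3282 CPM in undifferentiated and 199 to 235 CPM in control libraries. Enterocyte markers (16 genes, 7 with a smORF) had 11 of 13 tested smORFs higher and 1 lower, that of APOA1, and their summed level was 1487 to 1896 CPM against 3375 to 3589 CPM. Fibroblast markers summed to 55.1 to 84.9 CPM in undifferentiated libraries, mostly from PDGFRA, and to 1.30 to 1.95 CPM in the control, with COL1A1 and COL3A1 holding no smORF and COL1A2 at 0 in both groups. Leukocyte markers summed to 1.30 to 1.95 CPM in these 4 libraries, with PTPRC at 0. Cell division and fibroblast markers were lower in the control, as were most tested members, while enterocyte markers were mostly higher. The part of these markers in the members' changes was not tested. In bulk lysates, fewer cells of a type and less RNA per cell cannot be told apart.

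The first comparison asked how the members differ between differentiated and undifferentiated cells. Splicing factor and helicase smORFs were called lower after differentiation more often than higher, and all that were called higher lay in SRSF5 and DHX32. In this comparison a smORF was called when edgeR's quasi-likelihood test gave an adjusted p below 0.05 and a change of at least 2-fold. Of the 136 members with enough counts to test, 49 (36.0%) were called lower and 12 (8.82%) higher. Over all 15182 smORFs tested, 15.6% were called lower and 17.7% higher. The median log2 fold change was -0.47 over the members and 0.01 over all smORFs tested. The scaled values of the 2 groups did not overlap for 95 members, a share near the 69.4% of all smORFs tested. Among uORFs alone, 45 of the 125 tested members (36.0%) were called lower, against 18.8% of all uORFs tested. Members without ATG were called lower in 42 of 107 cases (39.3%) and those with ATG in 7 of 29 (24.1%), against 19.0% and 10.2% of all such smORFs.

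The 36 members left out by the low-count filter held between 0 and 61 counts over all 8 libraries, with a median of 20.5. With each smORF counted under the first family symbol listed for it, they include every smORF of 12 host genes. These were DDX10, DDX18, DDX59, DDX60, DHX16, DHX58, HNRNPH1, HNRNPUL1, HNRNPUL2-BSCL2, SF3A2, SNRPB and SNRPD3. A smORF listed for both HNRNPUL2 and HNRNPUL2-BSCL2 was tested and is counted under HNRNPUL2. Without the filter, 169 members were tested and 62 called. The number of calls also rested on single libraries: without differentiated control replicate 2 the calls fell to 39 of 144 tested members, 28 lower and 11 higher. Calls made in all 4 fits that left out a library of these groups numbered 29, in 14 host genes.

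To count reads of overlapping smORFs once, counts were summed per host gene over 1 smORF per cluster, and all 4630 host genes with enough counts were tested in the same way. Of the 48 member host genes tested, 23 (47.9%) were lower and 2 (4.17%) higher in the differentiated control, while 16.1% of all host genes tested were lower and 18% higher. The log2 fold change was negative in 42 of the 48 member host genes, and its median was -1.01, against 0.01 over all host genes tested. By family, 6 of 8 SRSF, 7 of 12 HNRNP, 5 of 7 SNRP, 1 of 5 SF3A and SF3B, 3 of 10 DDX and 1 of 6 DHX host genes fell, and 1 SRSF and 1 DHX host gene rose. The largest falls were in DDX52, DDX21 and SNRPD1. In host-gene CPM, DDX52 stood at 337 and 473 in undifferentiated cells and at 48.3 and 43.4 in the control (log2 fold change -3.14 ± 0.31, edgeR's adjusted p = 2.19e-06). DDX21 stood at 205 and 344 against 30.7 and 31.8 (-3.11 ± 0.43), and SNRPD1 at 364 and 333 against 22.0 and 66.5 (-2.87 ± 0.35, and -3.95 without differentiated control replicate 2).

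**Figure D2:**
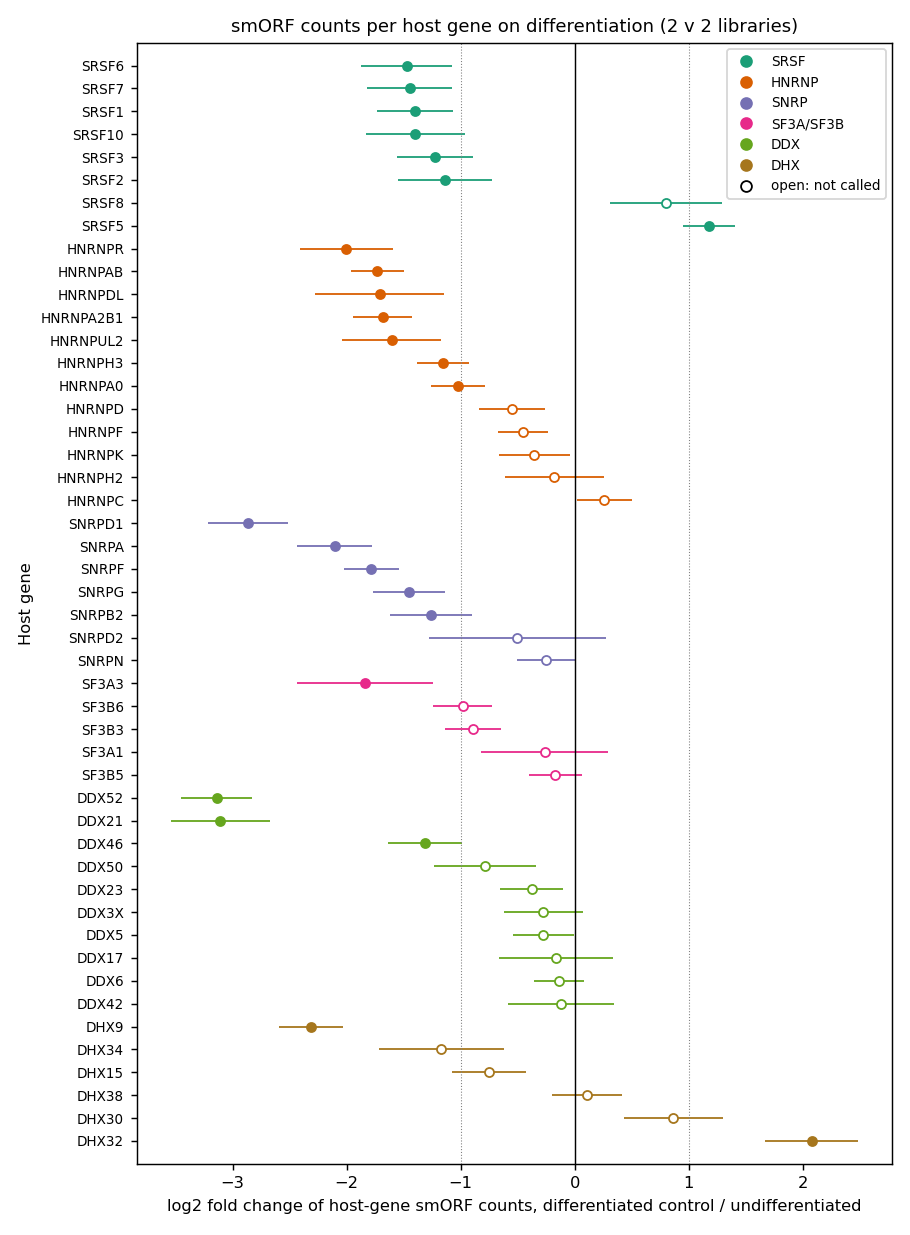
Log2 fold change of the summed smORF counts of each of the 48 member host genes tested, differentiated control over undifferentiated (x axis), by family, with bars of 1 standard error. Filled points were called and open points were not, with dotted lines at 2-fold. The called falls run from -3.14 in DDX52 to -1.03 in HNRNPA0, and SRSF5 (1.18) and DHX32 (2.08) were the called rises.

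The SRSF family split. SRSF5, an SR protein gene, rose, while SRSF1, SRSF2, SRSF3, SRSF6, SRSF7 and SRSF10 fell. In host-gene CPM, SRSF5 stood at 1005 and 1003 in the undifferentiated libraries and at 2283 and 2261 in the differentiated control, so both control libraries were higher. Its log2 fold change was 1.18 ± 0.23 (SE, edgeR's adjusted p = 0.000942). SRSF7 stood at 387 and 303 against 154 and 104, a log2 fold change of -1.45 ± 0.37 (edgeR's adjusted p = 0.00663). SRSF6 stood at 182 and 192 against 52.7 and 78.1, a log2 fold change of -1.47 ± 0.40 (edgeR's adjusted p = 0.00891). In these 3 genes the groups did not overlap. SRSF8, an intronless relative of SRSF2, had 33.1 and 96.2 against 123 and 101, with a log2 fold change of 0.80 ± 0.49 that did not pass the test (edgeR's adjusted p = 0.212).

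Among single SRSF smORFs with a mean of at least 10 counts, a limit kept for the levels of all families, the highest level per kilobase over the 8 libraries belonged to the 56-amino-acid uORF IEC_09612 of SRSF5, at 5223 CPM per kilobase. In undifferentiated cells it had 301 and 268 counts and in the control 513 and 773, and it rose by a log2 fold change of 1.08 ± 0.24 (edgeR's adjusted p = 0.00208). All 10 SRSF smORFs called higher came from this cluster, with log2 fold changes of 1.08 to 1.92, so they are largely the same reads. The 4 tested SRSF5 smORFs that were not called lay wholly within chr14:69767095-69767256, the start of the cluster, and had log2 fold changes of 0.64 to 0.96. Of the 13 tested SRSF smORFs outside SRSF5, 9 (69.2%) were called lower and 0 higher, against 15.6% and 17.7% of all smORFs tested.

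The largest falls in the SRSF family were those of SRSF1, a founding SR protein, and SRSF6. IEC_13557, a 21-amino-acid uORF of SRSF1, had 35 and 40 counts in undifferentiated cells and 6 and 13 in the control, a log2 fold change of -2.08 ± 0.41 (edgeR's adjusted p = 0.000949). IEC_12571, a 23-amino-acid uORF of SRSF6, had 42 and 32 counts against 8 and 17, giving a log2 fold change of -1.66 ± 0.47 (edgeR's adjusted p = 0.0105). Its call was lost without differentiated control replicate 1 (-1.42) and without undifferentiated replicate 1 (-1.54). IEC_14949 in SRSF7, the second highest SRSF smORF per kilobase at 1383 CPM, had 117 and 82 counts against 35 and 36 and fell by 1.54 on the log2 scale, with an SE of 0.37, a call lost without differentiated control replicate 2 (-1.23). Each of these had both control libraries below both undifferentiated libraries.

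**Figure D3:**
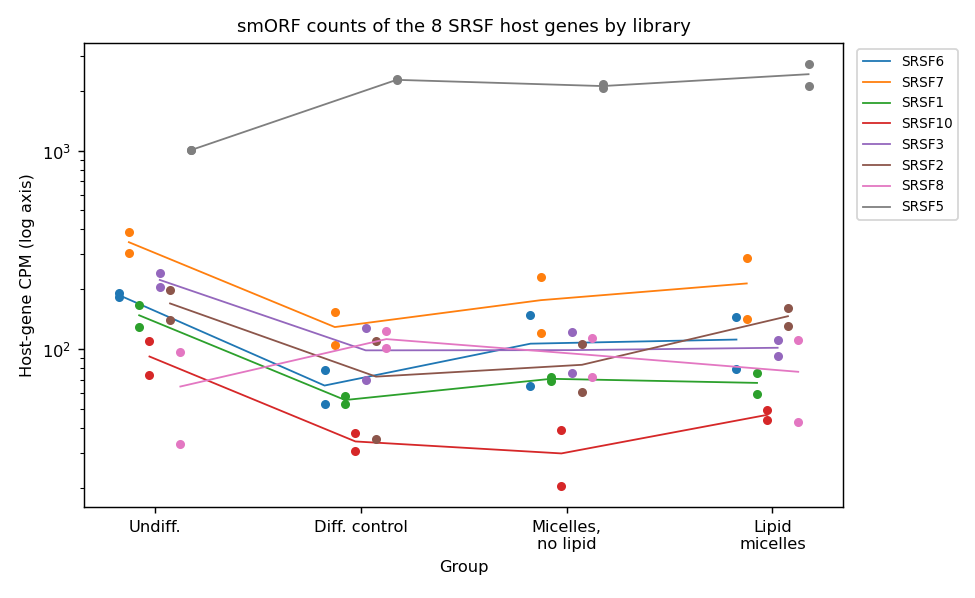
Summed smORF counts of the 8 SRSF host genes in host-gene CPM (log axis) in the 4 groups. Points are the 2 libraries of each group and lines join the group means. SRSF5 lies above the other genes in every library and is higher in the 6 differentiated libraries (2056 to 2737) than in the 2 undifferentiated ones (1003 and 1005), whereas SRSF1, SRSF2, SRSF3, SRSF6, SRSF7 and SRSF10 are lower in the control than in undifferentiated cells.

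HNRNP smORFs either fell or were not called. Of the 34 tested, 14 (41.2%) were called lower and 0 higher, against 15.6% and 17.7% of all smORFs tested. The median log2 fold change was -0.64. IEC_16117, a 59-amino-acid uORF of HNRNPA2B1, which encodes hnRNP A2 and B1, dominated the family. Counts were 3785 and 2509 in undifferentiated cells and 669 and 1318 in the control, so every control value was below every undifferentiated value. It fell by 1.78 on the log2 scale, with an SE of 0.26 (edgeR's adjusted p = 4.92e-05). At 13485 CPM per kilobase it was the highest HNRNP smORF, and it held 43.2% ± 5.22 of the member counts taken over 1 smORF per cluster in undifferentiated cells and 26.5% ± 4.14 in the control (SD, n = 2). Without HNRNPA2B1 the summed level of the HNRNP family was 2312 ± 27.4 CPM in undifferentiated cells and 1253 ± 8.31 CPM in the control (SD, n = 2).

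The second highest HNRNP smORF per kilobase was IEC_15641, a 12-amino-acid ATG uORF of HNRNPF, at 5236 CPM. It had 178 and 160 counts against 101 and 110, and its log2 fold change of -0.74 ± 0.27 was below the 2-fold limit (edgeR's adjusted p = 0.0384). The largest falls were in HNRNPDL and HNRNPR, which encode RNA-binding proteins of the same class. IEC_20537, an 8-amino-acid dORF of HNRNPDL, had 26 and 17 counts against 3 and 2 and was at least 7.28-fold lower, taking 3 counts in each control library as the floor, a call lost without differentiated control replicate 2. IEC_14604, a 42-amino-acid uORF of HNRNPR that no annotated transcript holds in full, had 58 and 39 counts against 9 and 15, giving a log2 fold change of -2.10 ± 0.41 (edgeR's adjusted p = 0.000862). All 4 smORFs of HNRNPH3, which share 1 cluster, fell by 1.00 to 1.25 on the log2 scale, and none of the 11 tested smORFs of HNRNPC was called (log2 fold changes of -0.29 to 1.59).

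Of the 23 SNRP smORFs tested, 15 (65.2%) were called lower and 0 higher, against 15.6% and 17.7% of all smORFs tested. The median log2 fold change was -1.56. The host genes SNRPD1, SNRPA, SNRPF, SNRPG and SNRPB2 fell. SNRPD1, SNRPF and SNRPG encode Sm proteins, the ring of the spliceosomal snRNPs, and SNRPA and SNRPB2 encode RNA-binding proteins of the U1 and U2 snRNPs. IEC_01680, a 10-amino-acid uORF of SNRPD1, had 106 and 86 counts in undifferentiated cells and 4 and 23 in the control. It fell by 2.96 on the log2 scale, with an SE of 0.39 (edgeR's adjusted p = 2.06e-05). The 2 control libraries differed, and the log2 fold change was -2.36 without control replicate 1 and -4.28 without control replicate 2.

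The pair of neighbouring SNRPF uORFs IEC_01099 and IEC_01100 lie 3 bases apart on the same strand, and both fell. Their exons do not overlap, but a fragment could span both, so their counts may share reads. IEC_01099 had 266 and 267 counts against 59 and 102, giving a log2 fold change of -1.84 ± 0.28 (edgeR's adjusted p = 8.57e-05), and at 3627 CPM per kilobase was the highest SNRP smORF. IEC_01100 had 45 and 18 counts against 7 and 6, giving a log2 fold change of -2.31 ± 0.54 (edgeR's adjusted p = 0.0031). In SNRPA, 8 of 10 smORFs were called, all lower, and these form 3 clusters of shared reads. Among them, IEC_10771 lies in a transcript of SNRPA without a coding region, had 40 and 27 counts against 3 and 6, and fell by 2.96 on the log2 scale, with an SE of 0.57. SNRPN, which is paternally expressed and shares its transcript with SNURF, had no called smORF among 5 (log2 fold changes of -0.50 to 0.28). Its ATG uORF IEC_04513, at 3044 CPM per kilobase, had 60 and 35 counts against 29 and 42, so the scaled values overlapped.

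SF3A and SF3B smORFs fell in 4 of 10 tested cases (40%), against 15.6% of all smORFs tested, with a median log2 fold change of -0.64. Of the host genes, 1 of 5 (20%) was called lower, a share near the 16.1% of all host genes tested. SF3A3 encodes a subunit of SF3A, and its 23-amino-acid ATG uORF IEC_17026 had 23 and 23 counts against 2 and 11, giving a log2 fold change of -1.93 ± 0.58 (edgeR's adjusted p = 0.016) that was not called under DESeq2, without differentiated control replicate 1, or without either undifferentiated library. It was -1.37 without control replicate 1 and -3.20 without control replicate 2. SF3B6 encodes the SF3B protein that contacts the branch-point adenosine, and its smORFs IEC_13211 (90 and 82 counts against 39 and 52) and IEC_13212 (17 and 11 against 5 and 4) both lie in retained-intron transcripts. Their log2 fold changes were -1.0 ± 0.30 and -1.68 ± 0.64 (edgeR's adjusted p = 0.0146 and 0.0469), close to the limits of the call, and both calls were lost under DESeq2 and when any of the 4 libraries was left out. IEC_16643 in SF3B5 had 89 and 95 counts against 70 and 93, and its log2 fold change was -0.26 ± 0.26. Per kilobase, IEC_13211 (4477 CPM) and IEC_16643 (3127 CPM) were the highest of this family.

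DDX smORFs fell in few genes but by much. Of the 31 tested, 4 (12.9%) were called lower and 0 higher, a share near the background of 15.6%, and the median log2 fold change was -0.35. Many of these smORFs overlap within a gene and share reads, such as the 10 tested in DDX6. Of the 10 DDX host genes tested, 3 (30%) were called lower, against 16.1% of all host genes tested. The log2 fold change was negative in all 10. DDX52 and DDX21 encode helicases of ribosome biogenesis in the nucleolus. IEC_22890, a 7-amino-acid uORF of DDX52, had 102 and 128 counts in undifferentiated cells and 11 and 15 in the control, and fell by 3.24 on the log2 scale, with an SE of 0.33 (edgeR's adjusted p = 1.54e-06). IEC_03061, a 17-amino-acid uORF of DDX21, had 62 and 93 counts against 7 and 11 and fell by 3.20, with an SE of 0.44 (edgeR's adjusted p = 2.96e-05). In both the control libraries were far below the undifferentiated ones. DDX46, a helicase of early spliceosome assembly, was the other DDX host gene to fall, with a log2 fold change of -1.31 ± 0.32 (edgeR's adjusted p = 0.00521).

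Other DDX genes did not pass the test. IEC_14769, a 7-amino-acid ATG uORF of DDX23, a helicase of the U5 snRNP, had the highest level of the family at 3231 CPM per kilobase, followed by IEC_22890 in DDX52 at 3164 CPM. Both are 21 bases long, and IEC_13211 and IEC_04513, named above for their level, are 18. For smORFs this short, the level per kilobase depends on how fragments that cross an edge were counted, which is not given. IEC_14769 had 62 and 48 counts against 32 and 53, giving a log2 fold change of -0.47 ± 0.30. None of the 10 tested smORFs of DDX6, a helicase of mRNA decay and storage, was called (log2 fold changes of -0.61 to 0.12), and none of the 3 of DDX5 or the 5 of DDX42.

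Of the 11 DHX smORFs tested, 2 (18.2%) were called higher and 3 (27.3%) lower, against 17.7% and 15.6% of all smORFs tested, with a median log2 fold change of -0.19. The 16.7% of DHX host genes called in each direction were near the background of all host genes. DHX9, also known as RNA helicase A, carries the uORFs IEC_03603 and IEC_03604, which lie 3 bases apart and begin with ATG and GAG. IEC_03603 had 96 and 79 counts against 15 and 19 and fell by 2.44 on the log2 scale, with an SE of 0.32 (edgeR's adjusted p = 1.95e-05). IEC_03604 had 20 and 20 counts against 2 and 7 and fell by 2.24, with an SE of 0.56 (a log2 fold change of -3.00 without control replicate 2). Both lie opposite exons of DHX9-AS1.

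DHX32, a DEAH-box protein of little-known function, was the DHX gene that rose. IEC_14211, a 12-amino-acid ATG uORF, had 3 and 2 counts in undifferentiated cells and 10 and 21 in the control and was at least 4.66-fold higher, taking 3 counts in each undifferentiated library as the floor. IEC_24124, an intragenic smORF of 27 amino acids, had 6 and 6 counts against 10 and 34, giving a log2 fold change of 1.71 ± 0.53 (edgeR's adjusted p = 0.0176) that was not called under DESeq2, without differentiated control replicate 2, or without either undifferentiated library. Without control replicate 2 it was 0.99. For the host gene the log2 fold change was 2.08 ± 0.41 (edgeR's adjusted p = 0.00105). IEC_01138, an ATG uORF of the splicing helicase gene DHX38, had the highest DHX level at 2112 CPM per kilobase, 41 and 48 counts against 40 and 58, and a log2 fold change of 0.04 ± 0.33.

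Of the 16 members outside uORFs, 5 held a mean of at least 10 counts. Besides IEC_24124 and IEC_10771, described above, these were dORFs of SRSF8 (IEC_10500), HNRNPA2B1 (IEC_23811) and SRSF6 (IEC_12503). IEC_23811, of 86 amino acids and in a transcript annotated only for nonsense-mediated decay, had 18 and 18 counts against 8 and 14, giving a log2 fold change of -0.81 ± 0.52 beside the -1.78 of the uORF of the same gene. For IEC_12503 the counts were 13 and 20 against 4 and 10, and the log2 fold change was -1.34 ± 0.52 (edgeR's adjusted p = 0.0528). For IEC_10500 the counts were 8 and 14 against 20 and 33, and the log2 fold change was 1.15 ± 0.50 (edgeR's adjusted p = 0.0774). Neither passed the test.

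Separate smORFs of a host gene mostly had changes of equal sign. In the 15 host genes with at least 2 non-overlapping tested clusters, 12 had a single sign over their clusters, and HNRNPC, SNRPN and SRSF8 had both signs. These clusters lie on transcripts of the same gene and are not independent of one another. In SNRPF and DHX9 they lie only 3 bases apart, so a fragment could span both. Over all tested members, 102 of 136 (75%) had a negative log2 fold change, so equal signs would be common in any case. The share of all host genes with a single sign was not computed.

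Other genes of the pathway, a list of 118 splicing, decay and helicase genes outside these families, had 121 tested smORFs in 45 genes. Of these 28 (23.1%) were called lower, in 15 genes, and 5 (4.13%) higher, in 3 genes, against 15.6% and 17.7% of all smORFs tested. The median log2 fold change of the list was -0.70. IEC_16269, a uORF of SFPQ, which encodes a nuclear RNA-binding protein of paraspeckles, had 265 and 185 counts against 33 and 47 and fell by 2.57 on the log2 scale, with an SE of 0.29. IEC_03828 in CDC5L, a core spliceosome gene, had 15 and 11 counts against 1 and 4. Among those called higher, IEC_09965 in CLK3, a kinase of SR proteins, had 4 and 3 counts against 21 and 21, and IEC_13143 in SF1, the branch-point binding protein gene, had 2 and 3 against 9 and 13 and was at least 3.43-fold higher.

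The summed level of each family, over 1 smORF per cluster, was higher in both undifferentiated libraries than in all 6 differentiated ones in every family other than SRSF. For HNRNP it was 7546 ± 1023 CPM in undifferentiated cells and 2781 ± 297 CPM in the control (SD, n = 2). For SNRP it was 1276 ± 7.01 CPM in undifferentiated cells and 427 ± 26.4 CPM in the control (SD, n = 2). For DDX it was 1105 ± 35.8 and 599.6 ± 47.8 CPM, for SF3A and SF3B 567 ± 35.1 and 332 ± 31.3 CPM, and for DHX 429 ± 40.6 and 279 ± 7.88 CPM. In DHX, 3 of 6 tested host genes had a negative log2 fold change, and only DHX9 was called lower. DHX9 held 116 and 99 of the 291 and 225 DHX counts in undifferentiated cells. In the control it held 17 and 26 of 140 and 219. The SRSF sum was 1067 ± 2.94 and 1270 ± 3.23 CPM, but without SRSF5 it was 587 ± 5.66 and 254 ± 3.59 CPM. With 2 libraries against 2, the smallest p that an exact permutation test can give is 0.333, so these sums were not tested.

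**Figure D4:**
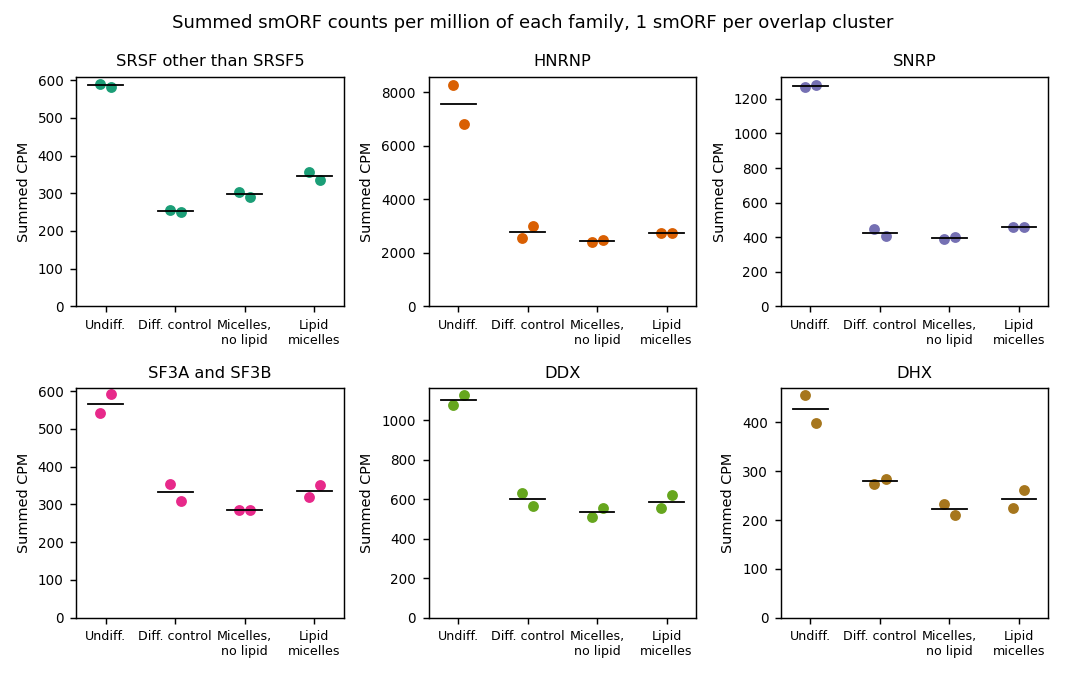
Summed CPM of the smORFs of each family, 1 smORF per overlap cluster, in the 2 libraries of each group (points) with the group mean (line), SRSF shown without SRSF5. In each panel both undifferentiated libraries lie above all 6 differentiated libraries, for example 1271 and 1281 CPM against 390 to 461 CPM for SNRP. Of the 6 DHX host genes tested, only DHX9 was called lower.

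The remaining comparisons asked whether micelles, with or without lipid, change the members in differentiated cells. No member was called in any of them. With micelles without lipid against the control, edgeR called 0 of 136 members (0% of 15182 smORFs tested), 10 members had an unadjusted p under 0.05, and DESeq2 called 0. With lipid micelles against the control the corresponding counts were 0 (0% of all), 11 and 0, and with lipid micelles against micelles without lipid 0 (0% of all), 5 and 0. Unadjusted p under 0.05 made up 7.35%, 8.09% and 3.68% of the tested members, against 4.08%, 4.66% and 4.11% of all smORFs tested. With the replicate number as a block, 0 of 125 tested members were called by edgeR, and 13, 20 and 10 of them had an unadjusted p under 0.05. The median log2 fold changes of the members were -0.10, -0.02 and 0.14, against 0.01, 0 and -0.01 over all smORFs tested. Since the 3 comparisons share libraries, they are given side by side.

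**Figure D5:**
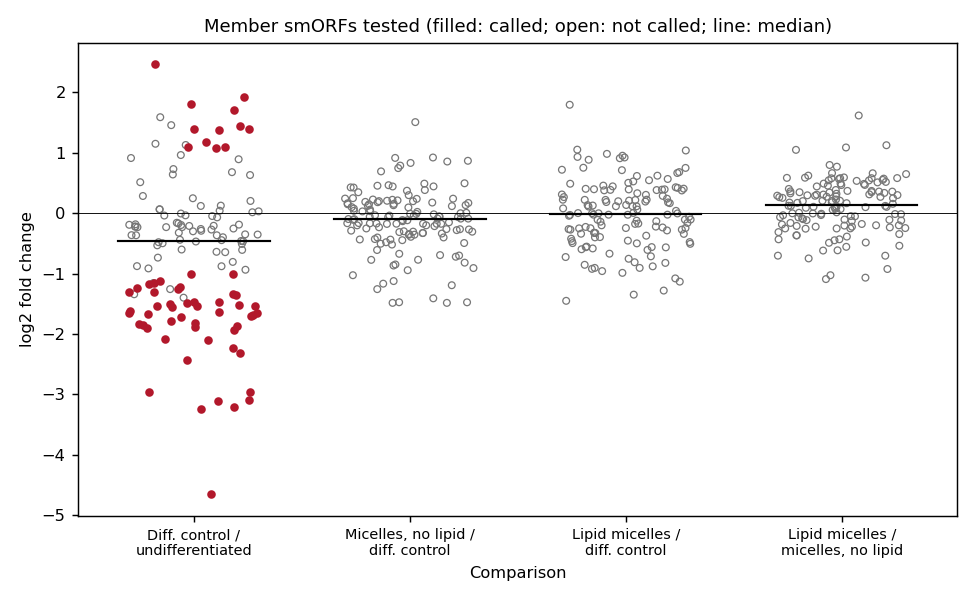
Log2 fold change of the 136 tested members in the 4 comparisons (filled red points called, open points not called, horizontal line the median). The differentiation comparison spans -4.65 to 2.47 with 61 calls, and the micelle comparisons span -1.49 to 1.79 with none.

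With micelles without lipid, the 3 members with the smallest p were overlapping uORFs of DDX3X, an X-linked helicase of translation initiation, and share reads. The longest, IEC_06700, had 56 and 51 counts in undifferentiated cells, 48 and 37 in the control, 19 and 12 with micelles without lipid and 28 and 32 with lipid micelles. Both libraries with micelles without lipid were below both control libraries, with a log2 fold change of -1.48 ± 0.41 (unadjusted p = 0.00196, edgeR's adjusted p = 0.858). IEC_11280 and IEC_04972 had log2 fold changes of -1.41 ± 0.42 and -1.49 ± 0.44, with the same adjusted p in edgeR. That of IEC_04972 was -0.89 without control replicate 1 and -2.23 without replicate 1 of the micelles without lipid.

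With lipid micelles against the control, the 3 smallest p were in SNRP genes. IEC_01100 in SNRPF had 7 and 6 counts in the control, 14 and 24 with micelles without lipid and 34 and 20 with lipid micelles, a log2 fold change of 1.79 ± 0.55 (unadjusted p = 0.00439, edgeR's adjusted p = 0.957). The neighbouring IEC_01099 had 59 and 102, 45 and 106, and 94 and 125 counts, with a log2 fold change of 0.20 ± 0.28. IEC_04245 in SNRPB2 had 11 and 20 counts in the control and 6 and 9 with lipid micelles (-1.28 ± 0.46), and IEC_01680 in SNRPD1 had 4 and 23 against 31 and 33 (1.04 ± 0.43), each with an adjusted p of 0.957 in edgeR. The log2 fold change of IEC_01680 was 0.48 without control replicate 1 and 2.40 without control replicate 2, and that of IEC_01100 was 1.16 without replicate 1 of the lipid micelles.

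With lipid micelles against micelles without lipid, IEC_03603 in DHX9 had 7 and 8 counts without lipid and 15 and 25 with lipid (log2 fold change 1.12 ± 0.42, unadjusted p = 0.0154). IEC_14211 in DHX32 had 15 and 21 against 10 and 10 (-1.09 ± 0.45), and IEC_16643 in SF3B5 had 68 and 73 against 111 and 146 (0.58 ± 0.26). The adjusted p in edgeR was 0.999 for each. The SE of the log2 fold change of the tested members ran from 0.23 to 1.53 in this comparison, with a median of 0.43, so a 2-fold change (1 on the log2 scale) would be under 3 SE for the median member and hard to detect at this depth.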

How the data were processed

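The study profiled ribosome-protected RNA in Caco-2 cells, 2 libraries in each of 4 groups, grouped and numbered by the labels. Per the submitters' processing notes, reads were aligned with STAR 2.7.11a to hg38. The authors assembled transcripts, scored open reading frames with RibORF, used HOMER to count fragments within smORFs, and deposited these raw counts. The deposited annotation holds a RibORF score of at least 0.7 for each smORF. Strand, exon and multi-mapping options of the counting are not given in the sources used here.

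Counts were joined to the annotation by smORF identifier, and all 24199 smORFs matched. Members and gene lists were chosen with earlier results of these data known. edgeR 4.0.16 (filterByExpr, TMM, quasi-likelihood F-test, two-sided, Benjamini-Hochberg adjusted over all 15182 smORFs tested) was fitted to all 8 libraries with a term per group. A call needed an adjusted p below 0.05 and a log2 fold change of 1 or more in either direction. Each SE was derived from this test, as the absolute log2 fold change divided by the square root of the F statistic. Counts per 1000000 (CPM) are relative to the counts of tested smORFs after TMM scaling, and host-gene CPM to those of tested host genes. Fold changes against groups with 3 or fewer counts in both libraries are bounds against 3 counts. Transcript places came from GENCODE release 44.

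smORFs were named by rule: in each family up to 2 called rises and 2 called falls by log2 fold change, or by its bound, among members whose groups did not overlap and taking 1 smORF per overlap cluster (that with the most counts), the 2 highest per kilobase with a mean of at least 10 counts, again 1 per cluster, the 3 smallest p in each micelle comparison, up to 6 members outside uORFs and up to 3 called host genes in each direction. Other values, including the further host genes, IEC_16116 and the ranges of DDX6, DDX5, DDX42, HNRNPC, HNRNPH3 and SNRPN, were chosen after their values were seen.

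Libraries of equal number in different groups were compared by the correlation of their deviations from the group means. It was 0.198, 0.119 and 0.109 among the differentiated groups, and -0.065 to 0.021 for undifferentiated against differentiated libraries. The main fit held no replicate term in any comparison. The fold changes, SEs and p-values of single smORFs in the micelle comparisons therefore come from unpaired tests. Alternatives were DESeq2 1.42.0, other scalings and filters, fits without each library, 1 smORF per cluster, and a replicate block. The fit was tested on simulated data.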

Additional observations from a re-analysis of the deposited data

How the results depend on the processing

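The number of members called in the differentiation comparison (61 of 136) was 35 of 69 with 1 smORF per overlap cluster, where fewer smORFs are tested. Of these 35, 32 were lower and 3 higher. With at least 10 counts in every library, a filter that removes smORFs low in any library, 26 of 72 were called, 17 lower and 9 higher. The median log2 fold change of the members was -0.91 with 1 smORF per cluster and -0.21 with the 10-count filter. The shares of all smORFs called under the alternatives of this paragraph are not given here. Leaving out 1 library at a time gave 39 to 49 calls and medians of -0.77 to -0.47, and no called member changed sign. Without SRSF5, an alternative added after seeing the data, 51 of 122 members were called, 49 lower and 2 higher. With a replicate block 61 of 127 members were called, 15 higher and 46 lower, and in the micelle comparisons 0 under the block. DESeq2 called 47 members, 36 lower. The 25 called host genes became 18 to 26 under the alternatives. Of the 409 alternative values for named smORFs, 375 kept the call or its absence, 29 lost a call, 5 gained one and none changed direction while called. The lost calls were in SF3B6, SF3A3, DHX32, SRSF6, SRSF7 and HNRNPDL. Every micelle alternative gave 0 member calls. The low-count filter left 36 members out of the test; without it, 169 members were tested and 62 called, 14 higher and 48 lower.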
